A study of Mus musculus with 4 samples.

Results

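The Sonic hedgehog pathway was read at the RNA level through 9 genes in whole dorsal skin of adult mice. These encode the ligand Shh, the receptors and co-receptors Ptch1, Smo, Boc, Cdon and Gas1, and the transcription factors Gli1, Gli2 and Gli3. They were chosen by gene symbol as the core of the pathway, and are 9 of 18194 genes that have at least 1 probe set of their own on the array. They are read by 22 of the 34958 probe sets annotated with a single gene. Skin was taken at postnatal day 59 (P59), the late time of adult telogen, for 2 arrays. Telogen is the stage of the hair cycle in which follicles rest. The P59 arrays were set against skin at postnatal day 54 (P54), the middle time of the same phase, also with 2 arrays. All mice were male, of the strain labelled C57B6, and no genetic change or treatment is given for either group. The labels call the arrays biological replicates without saying which or how many animals each holds, so p-values measure the spread between these samples, which may be technical. Whole skin mixes many cell types, and in such bulk RNA fewer cells of a type and less RNA per cell cannot be told apart.

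In the Hedgehog pathway a secreted ligand binds Patched-1, encoded by Ptch1. Binding releases the membrane protein Smoothened from inhibition, and Smoothened acts through GLI transcription factors at the primary cilium. In hair follicles Shh is known as the signal made by the hair germ and matrix at the start of growth, and it is needed for the follicle to grow down. Gli1 and Ptch1 are themselves target genes of the pathway and are widely used as its readouts.

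Expression values are the authors' linear intensities, taken here to log2. The P59 and P54 arrays had median log2 values between 6.02 and 6.12. P59 replicate 2 stood apart from the other arrays: its score on the first principal component was 35.4, against -4.33 for P59 replicate 1 and -8.56 and -22.5 for P54 replicates 1 and 2. All 8 of 8 basal epidermal markers lay above the intensity filter, which most genes pass, so this alone does not identify the tissue. That filter, the 40th percentile of mean log2 intensity over genes, lay at 6.58 and left 10916 genes for testing.

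None of the Hedgehog genes passed the test of P59 against P54. Of the 9 genes, 7 passed the intensity filter, and Shh and Gli1 fell below it, Gli1 narrowly with a mean of 6.56. Of the 7 tested, 0 had an adjusted p under 0.05 in limma (0.917 to 0.999), and 0 had an unadjusted p under 0.05. Among all genes tested by limma 0.0183% passed the adjusted threshold, and 6.49% had an unadjusted p under 0.05. In the fit without the filter, which takes in Shh and Gli1, 0 of the 9 had an unadjusted p under 0.05, beside 6.17% of all genes, and 0 genes of 18194 passed the adjusted threshold. The tested members had a median log2 difference of 0.029 with 4 higher and 3 lower at P59, beside a median of 0.049 over all genes tested, of which 58.4% were higher. Of all 9 members 5 were higher, beside 62.3% of all genes without the filter. Both P59 arrays lay above both P54 arrays for Ptch1 and Cdon among the 7, which is 28.6% without overlap, close to the 33.7% of all genes tested (18.9% with P59 higher and 14.8% with P59 lower). Adding the genes below the filter, Shh joined these, and 33.3% of the 9 had groups without overlap, beside 35.6% of all 18194 genes, or 23.3% with P59 higher. The share without overlap was therefore near the background in both counts.

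**Figure D1:**
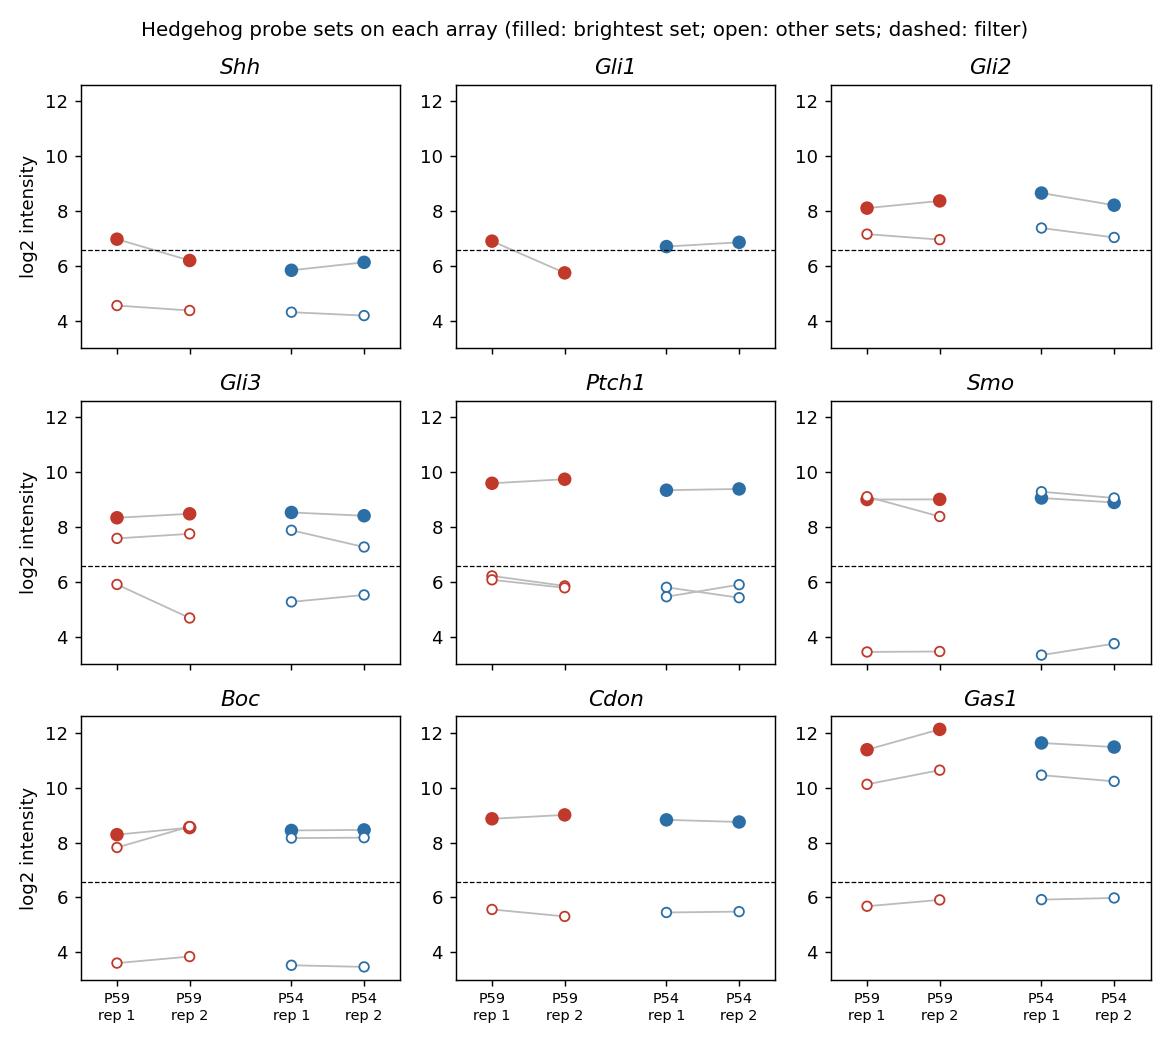
Log2 intensity (vertical axis) of all 22 Hedgehog probe sets on each array (horizontal axis), with P59 in red and P54 in blue; filled points are the set with the highest mean for its gene, open points the other sets, and the dashed line is the intensity filter at 6.58. The brightest sets of Gli2, Gli3, Ptch1, Smo, Boc, Cdon and Gas1 stand above the line on every array, whereas those of Shh and Gli1 cross it.

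The ligand gene Shh had log2 intensities of 6.98 and 6.20 in P59 replicates 1 and 2, against 5.85 and 6.14 in P54 replicates 1 and 2. P59 replicate 1 was the array above the filter, and P59 replicate 2 exceeded the higher P54 array by little. The mean was 6.59 ± 0.55 at P59 and 5.99 ± 0.20 at P54 (SD, n = 2 each), a 1.52-fold difference with a 95% interval of 0.947 to 2.43-fold. In limma's fit without the filter the log2 difference was 0.60 (SE 0.28, adjusted p = 0.830). The gap rested mostly on P59 replicate 1: without it the log2 difference was 0.21, and without P59 replicate 2 it was 0.99. A second probe set of Shh, dimmer still, read 4.56 and 4.38 at P59 and 4.32 and 4.19 at P54, which again placed P59 replicate 1 highest. Because both sets have means below the filter, these folds are rough.

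Ptch1, the receptor gene that the pathway also induces, had the largest difference of the tested members. Its brightest set read 9.59 and 9.74 in P59 replicates 1 and 2, against 9.34 and 9.38 in P54 replicates 1 and 2. Replicates lay close together in both groups, and the groups did not overlap. The mean was 9.66 ± 0.10 at P59 and 9.36 ± 0.03 at P54 (SD, n = 2 each), 1.23-fold higher with a 95% interval of 0.874 to 1.74-fold (log2 difference 0.30, SE 0.22, adjusted p = 0.917 in limma). Leaving out each array in turn kept the log2 difference between 0.23 and 0.38. A second set, below the filter, read 6.21 and 5.85 at P59 and 5.80 and 5.42 at P54. The third set, also below it, read 6.07 and 5.78 at P59 and 5.45 and 5.89 at P54, where the groups overlapped. All 3 sets were higher at P59 on average, by 0.30, 0.42 and 0.25 (log2), and the interval of each included 0.

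Smo, which encodes the signal transducer Smoothened, gave an answer that depended on the probe set read. Its brightest set, whose probes may detect several transcripts, read 8.997 and 9.002 on the P59 arrays, against 9.05 and 8.89 in P54 replicates 1 and 2. The log2 difference of this set was 0.029 (95% interval -0.47 to 0.53, adjusted p = 0.999 in limma). The next set has nearly the same mean over the arrays, 8.95 beside 8.98, yet it read 9.10 and 8.38 in P59 replicates 1 and 2 and 9.28 and 9.05 at P54. The log2 difference of this next set was -0.43, the low value being that of P59 replicate 2 alone. Its 95% interval, from a separate limma fit over all probe sets, was -1.15 to 0.29. In that fit the interval of the brightest set was -0.41 to 0.46. The differences of these 2 sets lay 0.457 apart. Among 4202 genes with 2 sets above the filter the median gap was 0.174, and 17.2% had a larger gap than Smo.

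The co-receptor genes Boc, Cdon and Gas1 encode cell-surface proteins that bind Sonic hedgehog and help it signal through Patched-1. Boc read 8.29 and 8.55 in P59 replicates 1 and 2, against 8.44 and 8.46 at P54, so that the P59 arrays lay on either side of both P54 arrays (log2 difference -0.034, 95% interval -0.54 to 0.47). A second set of Boc spread the same way but more widely, with 7.82 and 8.58 at P59 and 8.16 and 8.18 at P54. Cdon read 8.87 and 9.01 at P59, against 8.83 and 8.75 at P54. Its groups did not overlap, by a margin smaller than the gap between the P59 arrays, and the log2 difference was 0.15 (95% interval -0.35 to 0.65, adjusted p = 0.965 in limma).

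Gas1, which encodes a lipid-anchored co-receptor, varied most among the tested members by their brightest sets. It read 11.38 and 12.12 in P59 replicates 1 and 2, against 11.63 and 11.48 in P54 replicates 1 and 2. P59 replicate 1 was the lowest array and P59 replicate 2 the highest, so the groups overlapped (log2 difference 0.20, 95% interval -0.42 to 0.82, adjusted p = 0.961 in limma). The direction turned with the array left out: the difference was -0.17 without P59 replicate 2 and 0.57 without P59 replicate 1. A second bright set gave the same order at P59, with 10.12 and 10.64, beside 10.46 and 10.23 at P54. The P59 arrays of Gas1 were 0.741 apart, and 9.94% of genes tested had a larger gap between these arrays.

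Of the 3 GLI factors, GLI2 is known mainly as the activator that carries the signal, GLI3 mainly as a repressor in its absence, and GLI1 as an activator made in response to it. Gli1 was read by a single probe set, at 6.91 and 5.75 in P59 replicates 1 and 2, against 6.71 and 6.87 in P54 replicates 1 and 2. P59 replicate 1 was thus the highest array and P59 replicate 2 the lowest, well below the other 3. In limma's fit without the filter the log2 difference was -0.46 (95% interval -1.32 to 0.41, adjusted p = 0.882), with means of 6.33 ± 0.82 at P59 and 6.79 ± 0.11 at P54 (SD, n = 2 each). Without P59 replicate 2 the difference was 0.12, and without P59 replicate 1 it was -1.04 (adjusted p = 0.0793 in limma). The gap of -1.16 between the P59 arrays was exceeded in size by 2.32% of all genes. By the brightest set of Ptch1, Gli1 and Ptch1, both readouts of the pathway, did not share an order over the arrays. P59 replicate 2 was highest for that set and lowest for Gli1, whose set lies below the filter. The dimmer Ptch1 sets, also below the filter, were highest in P59 replicate 1, as Gli1 was, but neither was lowest in P59 replicate 2.

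Gli2 read 8.11 and 8.37 in P59 replicates 1 and 2, against 8.66 and 8.22 in P54 replicates 1 and 2. P54 replicate 1 was its highest array, and the other 3 arrays lay close together (log2 difference -0.20, 95% interval -0.75 to 0.36, adjusted p = 0.954 in limma). The difference was 0.025 without P54 replicate 1. Its second set, whose probes may detect several transcripts, read 7.16 and 6.96 at P59 and 7.39 and 7.04 at P54, also highest in P54 replicate 1. The brightest set of Gli3 read 8.33 and 8.48 at P59, against 8.53 and 8.40 at P54. By this set Gli3 was among the least variable members (log2 difference -0.061, 95% interval -0.56 to 0.44). Its other sets spread more widely. The second read 7.58 and 7.75 at P59 and 7.88 and 7.27 at P54, and the dimmest 5.90 and 4.68 at P59 and 5.27 and 5.52 at P54. The second set differed by 0.092 and the dimmest by -0.10, with overlapping groups in both.

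**Figure D2:**
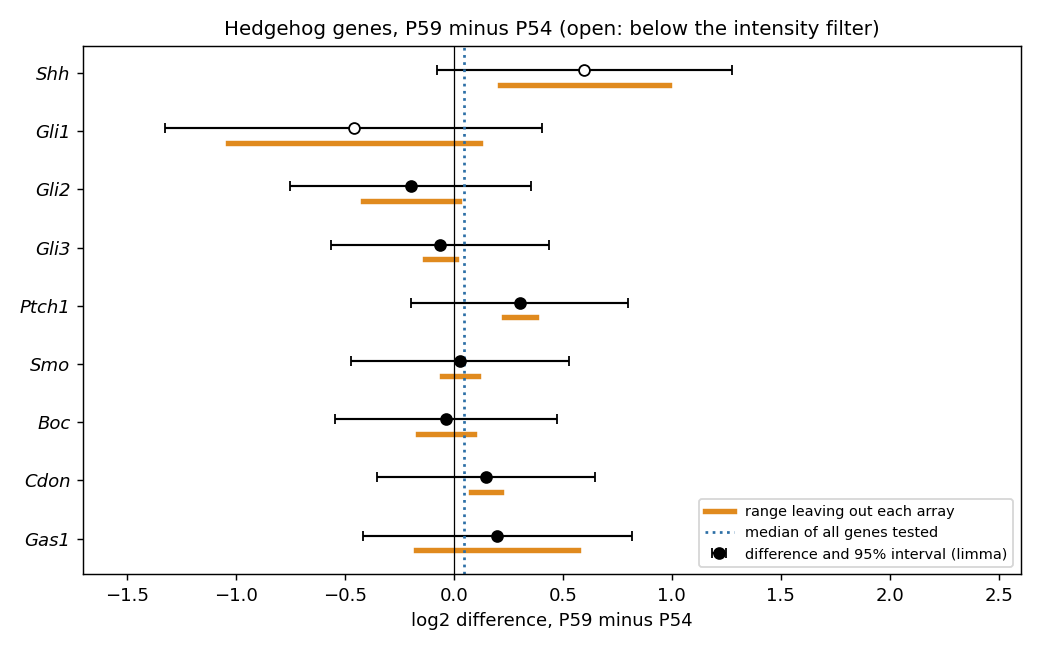
Log2 difference, P59 minus P54 (horizontal axis), of each Hedgehog gene (vertical axis), as points with 95% intervals from limma; open points mark Shh and Gli1, which lie below the intensity filter. Orange bars give the range when each array is left out in turn and the dotted line is the median of all genes tested, 0.049. Every interval includes 0, and the bars of Gli1, Gli2, Gli3, Smo, Boc and Gas1 cross it.

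The intervals set what the 4 arrays could show. For the brightest sets of Gli3, Smo and Boc the 95% interval lay within 1.5-fold in either direction, as it did for 16.7% of genes tested. A second set of each, also above the filter, had an interval that went past 1.5-fold in the fit over all probe sets. These intervals (log2) were -0.55 to 0.74 for Gli3, -1.15 to 0.29 for Smo and -0.69 to 0.75 for Boc. The interval of Gli2 reached 0.595-fold, that of Cdon 1.57-fold, that of Ptch1 1.74-fold and that of Gas1 1.76-fold. With 2 arrays per group, differences up to those bounds could not be told from none.

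The promoters of the members were searched for the GLI binding letters GACCACCCA, or TGGGTGGTC on the other strand, in the 250 bases before the annotated start. RefSeq's promoter table of GRCm38.p6 held 6 of the 9 genes (Gli2, Gli3, Gas1, Ptch1, Smo and Cdon). None of the 6 windows held the letters exactly or with 1 mismatch. Among all 32851 promoter windows searched, 0.225% held them exactly and 5.79% with up to 1 mismatch. A GC box (GGGCGG, or CCGCCC on the other strand) was found in 4 of the windows, those of Gli2, Gli3, Gas1 and Ptch1, and in 32.7% of all windows. The windows of Gli3 and Gas1, a stable and a variable member by their brightest sets, are shown with GC boxes in capitals. The Gli3 window is chr13:15463473-15463722 on the plus strand and the Gas1 window is chr13:60177536-60177785 on the minus strand, both upstream of the gene and read 5′ to 3′ towards it.
Gli3 promoter: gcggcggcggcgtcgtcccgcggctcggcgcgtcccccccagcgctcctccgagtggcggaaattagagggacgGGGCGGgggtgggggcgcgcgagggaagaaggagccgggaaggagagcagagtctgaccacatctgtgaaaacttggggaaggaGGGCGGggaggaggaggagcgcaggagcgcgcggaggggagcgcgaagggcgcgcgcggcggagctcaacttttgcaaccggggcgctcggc
Gas1 promoter: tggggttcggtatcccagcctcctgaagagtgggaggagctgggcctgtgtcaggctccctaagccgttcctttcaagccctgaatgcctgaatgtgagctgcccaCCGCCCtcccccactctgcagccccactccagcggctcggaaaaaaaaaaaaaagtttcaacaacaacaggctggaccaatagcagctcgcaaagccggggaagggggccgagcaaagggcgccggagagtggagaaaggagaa
The Gli3 window holds 2 GC boxes and is 72.8% G and C, and the Gas1 window holds 1 and is 58.8% G and C. These matches describe the letters and say nothing of binding in skin.

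Beyond the core genes, the other ligands and the genes that process and release Hedgehog proteins gave no called difference. Of 12 listed genes 6 were tested, with 2 higher and 4 lower at P59 and a median log2 difference of -0.016. In limma 0 of the 6 passed the adjusted threshold or had an unadjusted p under 0.05. Among all genes tested these shares were 0.0183% and 6.49%, and 58.4% were higher at P59. The ligand genes Ihh and Dhh, the palmitoyl transferase gene Hhat, Disp2, Scube1 and Scube3 were below the filter. Dhh, the Hedgehog ligand of Schwann cells, named after its values were seen, read 5.86 and 5.67 at P59, against 6.33 and 5.95 at P54. Ext2, an enzyme of heparan sulfate synthesis, read 9.17 and 8.75 at P59, against 9.19 and 9.29 at P54 (log2 difference -0.28, adjusted p = 0.939 in limma). Scube2, which helps release the lipid-modified ligand, differed by -0.18, Disp1, a transporter that exports it from the cell, by 0.080 and Ext1 by -0.031.

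Among other receptors and binding proteins 4 of 8 listed genes were tested, with 3 higher and 1 lower at P59 and a median log2 difference of 0.31. In limma 0 of these 4 passed the adjusted threshold, and 0 had an unadjusted p under 0.05. Among all genes tested these shares were 0.0183% and 6.49%, and 58.4% were higher at P59. Gpc3, a glypican known to bind Hedgehog ligands and lower their signal, read 8.57 and 8.68 at P59, against 8.14 and 8.21 at P54. Its groups did not overlap, with a log2 difference of 0.45 (SE 0.22, adjusted p = 0.825 in limma). Efcab7, part of the ciliary complex that holds the EVC proteins, read 6.67 and 7.24 at P59 and 6.58 and 6.36 at P54 (0.48, adjusted p = 0.856 in limma). Evc differed by 0.18 and Evc2 by -0.066. The median of this list was 0.092 without P59 replicate 2. Hhip, a decoy receptor and target gene also named after its values were seen, lay below the filter. Its brightest set read 5.00 and 5.51 in P59 replicates 1 and 2 and 5.60 and 5.11 at P54. Its dimmer sets differed by -0.56 and -0.12, both without overlap of the groups, and by -0.039 with overlap. Over all probe sets 35.1% had groups without overlap.

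Intracellular regulators differed little. Of 25 listed genes 21 were tested, 16 higher and 5 lower at P59, with a median log2 difference of 0.061. In limma 0 of the 21 passed the adjusted threshold or had an unadjusted p under 0.05. Among all genes tested these shares were 0.0183% and 6.49%, and 58.4% were higher at P59. Groups without overlap made up 9.52% of the 21, beside 33.7% of all genes tested. The ubiquitin ligase scaffold gene Cul1 differed by 0.30 (adjusted p = 0.929 in limma), the kinase gene Gsk3b by 0.20, Fbxw11 by -0.15 and Mosmo, an attenuator of Smoothened, by 0.15. The direction of this list's median turned without P59 replicate 2, when it was -0.087. Of 26 primary cilium genes 17 were tested, 13 higher and 4 lower, with a median of 0.13 that was -0.062 without P59 replicate 2. In limma 0 of the 17 passed the adjusted threshold, and 0 had an unadjusted p under 0.05. The same shares of all genes tested stand beside this list. Bbs4, a subunit of the BBSome that moves cargo in cilia, differed by 0.41, Ttbk2, a kinase that starts cilium assembly, by 0.34, Tctn1 by -0.31 and the ciliary transport gene Ift122 by 0.27 (adjusted p = 0.890 to 0.938 in limma).

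Candidate target genes did not move one way. Of 20 listed 12 were tested, 5 higher and 7 lower, with a median log2 difference of -0.021. In limma 0 passed the adjusted threshold and 2 had an unadjusted p under 0.05, 1 in each direction, beside 6.49% of all genes tested. Igfbp6, an IGF-binding protein gene, read 11.20 and 10.84 at P59, against 10.22 and 10.38 at P54 (0.72, SE 0.24, adjusted p = 0.562). The survival gene Bcl2 read 7.79 and 8.17 at P59, against 8.62 and 8.45 at P54 (-0.55, SE 0.24, adjusted p = 0.761). The cell cycle gene Ccnd2 differed by -0.45 (adjusted p = 0.848 in limma) and the Wnt inhibitor gene Sfrp1 by -0.31 (adjusted p = 0.921 in limma). All these genes respond to other signals as well, and the list was drawn from several tissues.

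**Figure D3:**
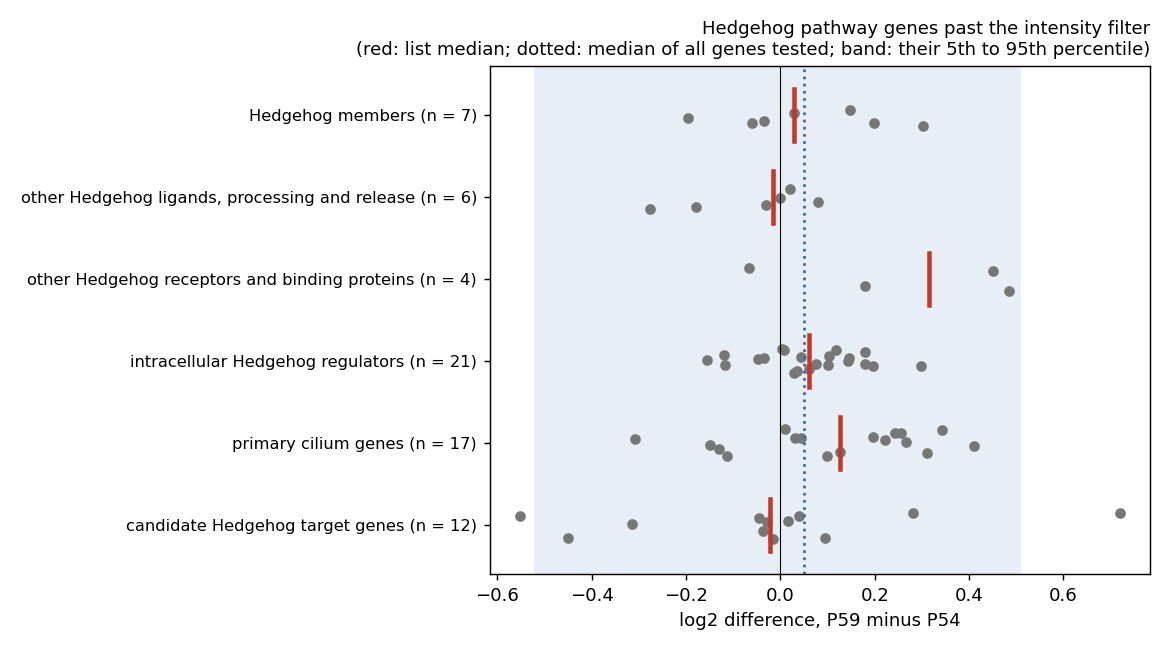
Log2 difference, P59 minus P54 (horizontal axis), of each tested gene in the Hedgehog lists (vertical axis); red bars are list medians, the dotted line is the median of all genes tested (0.049) and the band spans their 5th to 95th percentile, -0.52 to 0.51. Igfbp6 (0.72) and Bcl2 (-0.55) are the points outside the band.

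Cell type markers were set beside the members that varied over the arrays. The inner root sheath, part of the growing follicle, had 7 of 10 markers tested, with mean log2 levels of 10.50 and 8.44 in P59 replicates 1 and 2, against 7.30 and 6.18 in P54 replicates 1 and 2. Krt26, Krt73 and Krt74 were not tested. Of the 7, 6 were higher at P59 and 0 passed the adjusted threshold in limma, with 5 at an unadjusted p under 0.05. Among all genes tested 6.49% had an unadjusted p under 0.05. P59 replicate 1, highest for the inner root sheath markers, was also the highest array for Shh. The other arrays differed: the lowest was P54 replicate 2 for the markers and P54 replicate 1 for Shh. In P59 replicate 2 the mean of the markers stood clear of both P54 arrays, whereas Shh exceeded the higher of them by little. Taken singly, 5 of the 7 markers had groups without overlap, all with P59 higher. That is 71.4%, beside 33.7% of all genes tested. Of hair matrix and germ markers, cells in which Shh is made during growth, 8 of 12 were tested, 4 higher and 4 lower, with mean levels of 7.61 and 7.46 at P59 against 7.49 and 7.46 at P54. The matrix genes Dlx3 (0.42, adjusted p = 0.869 in limma) and Lef1 (0.38, adjusted p = 0.875 in limma) were higher on both P59 arrays than on either P54 array, and Pdgfa (-0.22, adjusted p = 0.952 in limma) was lower on both. Of the 8, groups did not overlap for 2 in each direction. Among all genes tested the share without overlap was 33.7% (18.9% with P59 higher and 14.8% with P59 lower). Msx2, Foxn1, Wnt10b and Edar were below the filter. The part of these cell types in the Shh values was not tested.

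Bulge cells, among which Gli1 is known to mark a subset, had 12 of 12 markers tested, 11 of them lower at P59 and 0 past the adjusted threshold in limma, with 4 at an unadjusted p under 0.05. Their mean level was 9.61 and 9.59 in P59 replicates 1 and 2, against 9.91 and 9.95 at P54, lower on both P59 arrays, whereas Gli1 was low on P59 replicate 2 alone. By the median of centred markers P59 replicate 1 was the lowest array for the bulge list (-0.17, beside -0.095 in P59 replicate 2), and by the mean P59 replicate 2 was. Epidermal markers were lower too: 8 of 8 tested basal markers, with a median log2 difference of -0.42, and 7 of 8 tested suprabasal markers, with a median of -0.21. In limma 0 of either list passed the adjusted threshold, with 3 and 1 at an unadjusted p under 0.05. The share of all genes tested at an unadjusted p under 0.05, 6.49%, stands beside each marker list here. Col17a1, Itga6 and Krt15 stand on both the bulge and the basal list. Schwann cell and nerve markers, 6 of 11 tested, had means of 9.21 and 9.39 at P59 against 9.61 and 9.29 at P54. Dermal fibroblast markers, 12 of 12 tested, had means of 11.63 and 11.58 at P59 against 11.51 and 11.37 at P54, higher on both P59 arrays as Ptch1 was. Of them 8 were higher and 4 lower, with a median log2 difference of 0.053, beside 0.049 over all genes tested. In limma 0 of the 12 passed the adjusted threshold, and 3 had an unadjusted p under 0.05, all higher at P59. These were Dpp4 (log2 difference 0.70), Pdgfra (0.64) and Mfap5 (0.62), with adjusted p of 0.620 to 0.648 in limma. Groups did not overlap for 5 with P59 higher and 1 with P59 lower, beside 18.9% and 14.8% of all genes tested. Macrophage markers, 12 of 12 tested, were also higher on both P59 arrays, with means of 10.08 and 9.99 at P59 against 9.75 and 9.58 at P54. Of these 11 were higher, with a median of 0.48, and 0 passed the adjusted threshold in limma, with 5 at an unadjusted p under 0.05. Dermal papilla markers, 8 of 17 tested, had means of 7.86 and 7.81 at P59 against 7.91 and 7.75 at P54. Corin, Sox2 and Rspo3 were among those below the filter. Of the 8, 6 were higher and 2 lower, and 0 passed the adjusted threshold in limma. An unadjusted p under 0.05 was found for 2, Crabp1 (log2 difference -1.12) and Fgf7 (0.78), which went opposite ways. Whether these cell types had a part in the Gli1 and Ptch1 values was not tested.

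**Figure D4:**
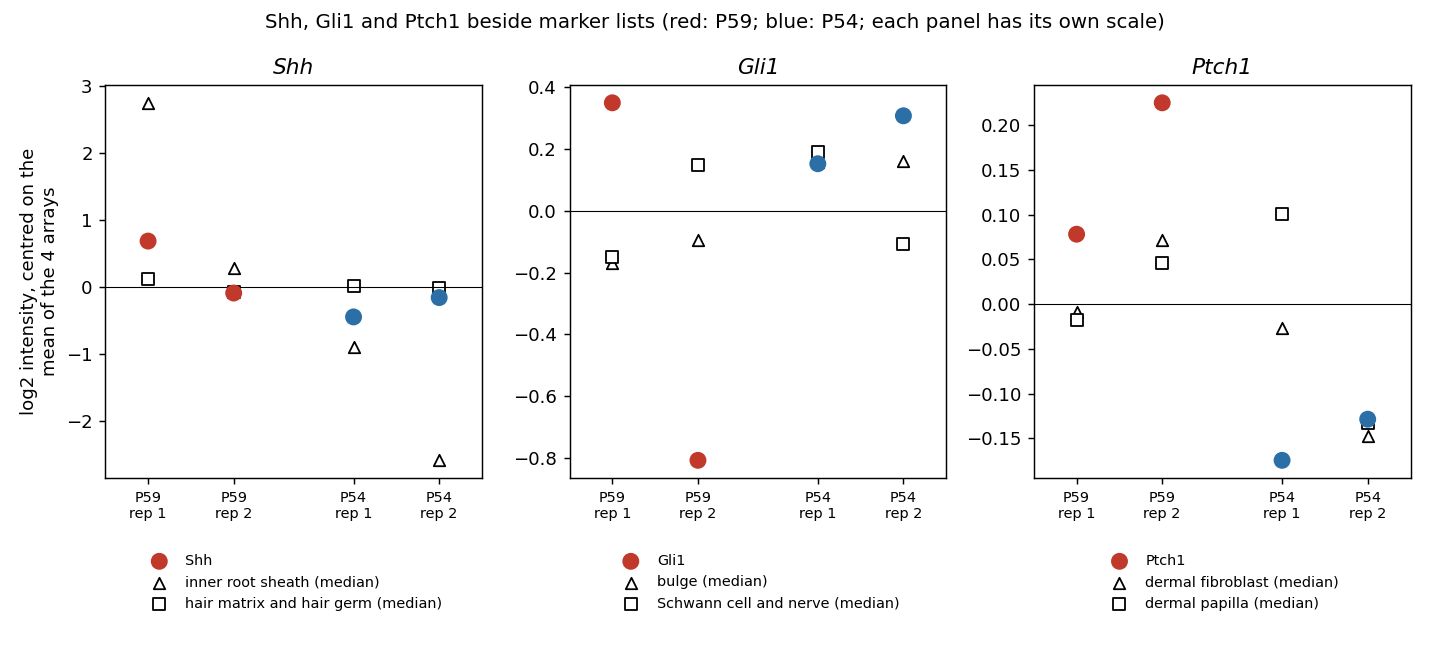
Log2 intensity centred on the mean of the 4 arrays (vertical axis, its scale differing between panels) for Shh, Gli1 and Ptch1 as coloured points (red P59, blue P54), beside the median of centred marker genes as open symbols. P59 replicate 1 is highest for Shh and for the inner root sheath, whose lowest arrays are P54 replicate 1 and P54 replicate 2 in turn. P59 replicate 2 is lowest for Gli1, while the bulge medians are negative on both P59 arrays.

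The tested genes whose centred log2 profile lay nearest to a member by Euclidean distance over the 4 arrays were named as a description. For Shh they were Slfn5 (distance 0.0994), Cd274 (0.163), Adam12 (0.171), Rtp4 (0.240) and Klk6 (0.254), each highest in P59 replicate 1. Of 10916 genes 90 lay within a distance of 0.5 of Shh. For Gli1 they were Cdc37 (0.0560), Rhog (0.0603), Tk2 (0.0746), Zfp777 (0.0804) and Rabggta (0.0833), each lowest in P59 replicate 2, with 584 genes within 0.5. For Ptch1, whose arrays differed little, 6643 genes lay within 0.5, and the nearest were Krt32 (0.0176), Ncf1 (0.0215), E2f8 (0.0230), Cep78 (0.0369) and Dhx32 (0.0402). With 4 arrays many genes share a profile, and nearness was given no test.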

How the data were processed

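The deposited file gives the authors' intensity of each probe set on 4 arrays, not in log form; per the submitters' processing notes it was made with RMA (background correction, normalization between arrays, summary of probes) in Affymetrix Expression Console, version and build not given in the sources used here. Values from 6.41 to 24000 were taken to log2 with no pseudocount. Of 45101 probe sets 34958 have 1 gene in GEO's platform annotation, 932 several and 9211 none listed; 34754 matched RefSeq (GRCm38.p6) by Entrez identifier, for names only. The set with the highest mean stood for its gene. Genes above the 40th percentile (6.58) were tested in limma 3.58.1 (R 4.3.3; lmFit, eBayes) with Benjamini-Hochberg adjustment over 10916 genes, threshold 0.05. Members below the filter were taken from the fit over all 18194 genes, where 0 passed in limma and 1122 had an unadjusted p under 0.05. The fit was tested on simulated data. A permutation of 2 against 2 arrays has 3 splits, so its smallest two-sided p is 0.333. The number of arrays limits the precision. Same-numbered replicates were not treated as pairs (correlation of their deviations -0.037 over 10916 genes).

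All 9 members are named; up to 4 genes of each other Hedgehog list and up to 3 of a marker list by smallest p, and the 5 nearest profiles of Shh, Gli1 and Ptch1. Members and lists were chosen with earlier results of these data known. Alternatives changed the filter, probe set rule, normalization, pseudocount, prior, replicate block and arrays used.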

Additional observations from a re-analysis of the deposited data

How the results depend on the processing

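No Hedgehog gene passed the adjusted threshold under any alternative in which it was tested; the smallest adjusted p in limma was 0.0793, for Gli1 without P59 replicate 1. Shh and Ptch1 kept a positive difference under all of theirs (0.21 to 0.99 and 0.23 to 0.42). Leaving out 1 array gave -1.04 to 0.12 for Gli1, -0.42 to 0.025 for Gli2, -0.13 to 0.012 for Gli3, -0.052 to 0.11 for Smo, -0.16 to 0.094 for Boc, 0.078 to 0.22 for Cdon and -0.17 to 0.57 for Gas1. Read from other probe sets, Gli3 differed by 0.092, Smo by -0.43 and -0.085, Boc by 0.030 and 0.23, Cdon by -0.032 and Gas1 by -0.16. With the mean of all sets Smo differed by -0.16 and Boc by 0.075; without sets that can match several transcripts Smo differed by -0.43; with arrays centred on their median Boc differed by 0.012. Causes of these turns other than the set or array used were not tested.

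Of all genes, 2 passed the adjusted threshold in limma, but 0 without the filter, with a filter at the 60th percentile, the mean of sets, each set tested, repeated quantile normalization or log2(value + 16) (458 to 1682 at an unadjusted p under 0.05). It was 47 with median-centred arrays, 12 with robust eBayes and 29 to 401 leaving out 1 array, where a lone array is assumed to vary like the other group (401 without P59 replicate 1, 29 without P59 replicate 2, 71 without P54 replicate 1 and 34 without P54 replicate 2). With the replicate number as a block 155 genes passed and 0 of the Hedgehog genes; the numbers are not known to pair the samples. Median centring moved the median of all genes to 0.096.

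List medians leaving out 1 array ran from -0.13 to 0.11 for the members, -0.091 to 0.055 for ligands and release, 0.092 to 0.45 for other receptors, -0.087 to 0.17 for intracellular regulators, -0.062 to 0.28 for cilium genes and -0.082 to -0.0074 for targets. With the mean of sets the medians were -0.16 for ligands and release and -0.11 for regulators; with each set tested 0.0084 for other receptors and -0.11 for targets; with median-centred arrays 0.025 for targets. Shh and Gli1 have no value with the stricter filter.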
